A study of Mus musculus with 16 samples.

Results

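The mouse genes Cyp2a4, Cyp2a5, Cyp2a12, Cyp2a22, Cyp2b9, Cyp2b10 and Cyp2b13 encode cytochromes P450 of the 2A and 2B subfamilies, and their RNA was followed in 16 livers. These 7 genes, of 46078 in the count table, were chosen from these same libraries with their levels on a high-fat diet known, and each was matched by its Ensembl ID. The design crossed 2 diets with 2 feeding states, with 4 livers per group. Mice of the strain labelled C56B6/J had been kept for 16 weeks on a control diet (CD) or on a high-fat diet (HFD) with 60% of calories from fat, and were killed either with free access to food (fed) or after 16 h without it (fast). The mice started the diets as young adults, and the study describes the mice of these livers as male. The labels name no transgene or deletion in any group.

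Cytochromes P450 of these subfamilies are haem enzymes of the endoplasmic reticulum, mostly in hepatocytes, that take electrons from NADPH through the reductase encoded by Por and insert an oxygen atom into steroids, drugs and other small lipophilic molecules. Cyp2b10 is the standard target of the xenobiotic receptor CAR (encoded by Nr1i3), which shares many targets with PXR (Nr1i2). Cyp2a4, Cyp2b9 and Cyp2b13 are known as female-predominant genes of the mouse liver, held low in males by the pulsatile growth hormone signal that acts through STAT5B. Cyp2a5 is best known as the coumarin hydroxylase, and Cyp2a12 and Cyp2a4 as steroid hydroxylases.

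Libraries held 41364448 to 57583153 counts, so that 3 counts correspond to 0.0536 to 0.0767 CPM (counts scaled to library size with TMM factors). Of all genes, 15075 passed the filter on low counts. All 7 P450 genes passed it, although Cyp2a4 and Cyp2b13 passed only through the HFD groups. The hepatocyte markers reached a summed 82200 to 151000 CPM over the 16 libraries, and RNA of Y-linked genes was present in each of them. Adipose markers summed to 2.08 to 70.3 CPM in HFD fast livers against 0.355 to 6.99 CPM in the other groups. The highest value was that of HFD fast replicate 2 and came almost wholly from Cfd (3095 counts), while Adipoq had 1 to 45 counts in that group. One control library, CD fed replicate 4, had 37 Xist counts against 0 to 9 in the others, together with 136 counts of A1bg and 22 of Cyp3a41a, both known as female-predominant. In whole liver, fewer cells of a type and less RNA per cell cannot be told apart.

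All 7 genes lie on chromosome 7 of GRCm38 between 25897620 and 27037375, a stretch of 1140 kb with 30 annotated genes, of which 15 code for protein. In order along the chromosome they are Cyp2b10 (25897620 to 25926624), Cyp2b13 (26061497 to 26096197), Cyp2b9 (26173411 to 26210661), Cyp2a4 (26307169 to 26315088), Cyp2a5 (26835305 to 26843548), Cyp2a22 (26931631 to 26939384) and Cyp2a12 (27029081 to 27037375). Cyp2a22 alone is on the minus strand. Within this stretch Cyp2b19 and Cyp2b23, the remaining coding genes of the 2B subfamily there, had 0 counts in all 16 libraries.

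Several of the genes are near copies, which bears on the counts. The longest coding transcripts of Cyp2a4 and Cyp2a5 were 98.3% identical, with 30 mismatches. Those of Cyp2a12 and Cyp2a22 were 96.5% identical, and those of Cyp2b9 and Cyp2b13 91.9%. Of all 100-base windows of a gene's annotated transcripts, 11.2% for Cyp2a4, 12.1% for Cyp2a5 and 9.29% for Cyp2b13 also occur in another gene, and reads from them could have been lost or given to the wrong copy. The share was 3.97% for Cyp2a12, 3.98% for Cyp2a22, 1.18% for Cyp2b9 and 0 for Cyp2b10. Most of the shared windows of Cyp2b13 match the pseudogene Gm45225 and not Cyp2b9. Cyp2a4 also overlaps the antisense gene Gm42375, Cyp2a22 the pseudogene Cyp2a21-ps and Cyp2b13 the pseudogene Rnf170-ps, so their counts carry that uncertainty too.

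**Figure D1:**
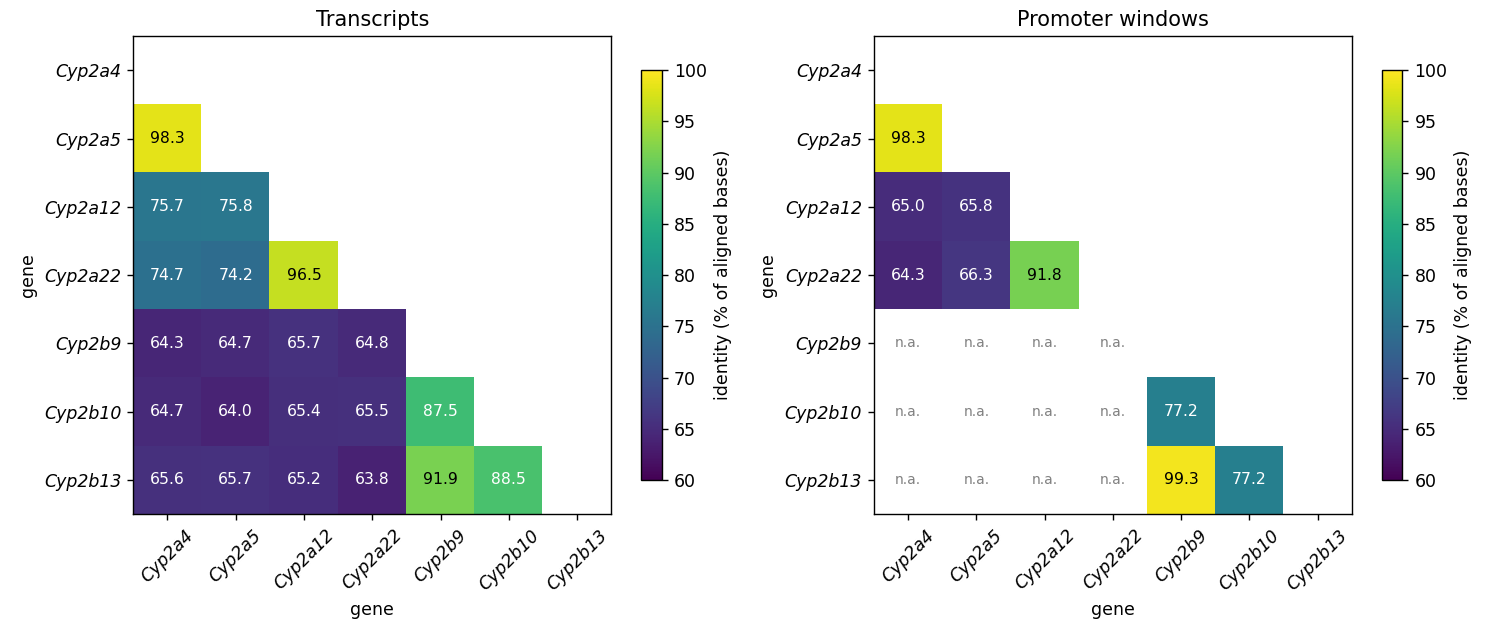
Identity in percent of aligned bases between each pair of the 7 genes, for the longest coding transcripts (left) and for the 300-base promoter windows (right, n.a. where under 200 bases could be aligned). Over the promoter window Cyp2a4 with Cyp2a5 and Cyp2b9 with Cyp2b13 are the closest pairs, at 98.3% and 99.3%. Over the transcripts Cyp2a4 with Cyp2a5 (98.3%) and Cyp2a12 with Cyp2a22 (96.5%) are.

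The likeness extends to the promoters. The promoter windows from RefSeq on GRCm38.p6, from 250 bases before to 50 after the start of transcription, are shown for the 2 closest pairs because their members had very different levels despite nearly the same sequence. Capitals mark the bases that differ between the members of a pair. Cyp2a4 and Cyp2a5 differed at 5 of 299 aligned bases.
Cyp2a4 (chr7:26306942-26307241, plus strand): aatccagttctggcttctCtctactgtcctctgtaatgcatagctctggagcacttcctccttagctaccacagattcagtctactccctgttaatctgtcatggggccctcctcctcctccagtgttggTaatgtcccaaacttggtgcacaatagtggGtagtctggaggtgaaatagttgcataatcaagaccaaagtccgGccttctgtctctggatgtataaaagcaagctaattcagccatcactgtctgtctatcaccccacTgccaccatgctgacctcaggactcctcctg
Cyp2a5 (chr7:26835089-26835388, plus strand): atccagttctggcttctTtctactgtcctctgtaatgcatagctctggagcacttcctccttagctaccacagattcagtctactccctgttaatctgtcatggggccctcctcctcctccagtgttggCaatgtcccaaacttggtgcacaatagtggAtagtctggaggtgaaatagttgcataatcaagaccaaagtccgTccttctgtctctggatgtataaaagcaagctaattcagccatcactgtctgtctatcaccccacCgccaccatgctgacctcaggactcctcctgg

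Cyp2b9 and Cyp2b13 differed at 2 of 300 bases (99.3% identity).
Cyp2b9 (chr7:26173159-26173458, plus strand): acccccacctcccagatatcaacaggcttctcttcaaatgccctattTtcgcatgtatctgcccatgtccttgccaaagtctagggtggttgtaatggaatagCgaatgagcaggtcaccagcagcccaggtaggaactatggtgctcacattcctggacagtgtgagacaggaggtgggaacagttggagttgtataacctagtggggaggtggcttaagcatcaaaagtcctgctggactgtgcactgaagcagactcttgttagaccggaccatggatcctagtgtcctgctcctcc
Cyp2b13 (chr7:26061245-26061544, plus strand): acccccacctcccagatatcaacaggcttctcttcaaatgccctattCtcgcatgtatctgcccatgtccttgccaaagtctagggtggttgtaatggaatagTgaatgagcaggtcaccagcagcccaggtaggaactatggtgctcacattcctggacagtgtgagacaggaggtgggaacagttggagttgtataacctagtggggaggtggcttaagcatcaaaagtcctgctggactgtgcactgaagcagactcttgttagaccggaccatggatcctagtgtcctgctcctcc

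Short motifs were searched in the windows on both strands, as a description of the letters only. The letters TGACCT, a nuclear receptor hexamer, were found in Cyp2a4, Cyp2a5, Cyp2b9 and Cyp2b13, and in 16.3% of 32851 promoters of the same length. In Cyp2a4 and Cyp2a5 the only match lay after the start of transcription. In Cyp2b9 and Cyp2b13 it lay before the start, on the other strand. CCAAT was found in Cyp2a12 and Cyp2b10, and in 37.4% of promoters. The STAT5 letters TTCNNNGAA (8.3% of promoters), the hexamer TGAACT (14.0%), the HNF4 letters CAAAGTCCA (0.475%) and the D box TTATGTAA (0.938%) were in none of the 7 windows. Since the pairs are copies of each other, these are not 7 independent sequences.

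Cyp2a12 and Cyp2a5 made up most of the RNA of these genes in every group. Per kilobase of the longest coding transcript, Cyp2a12 stood at 309 ± 29.1 CPM (SD, n = 4) in CD fed livers and Cyp2a5 at 153 ± 66.5, whereas each of the other 5 genes averaged under 2 CPM per kilobase. Cyp2a12 was the higher of the pair in 4 of 4 livers in CD fed, CD fast and HFD fed mice and in 3 of 4 in HFD fast mice. With the length of all annotated exons in place of the coding transcript, the mean log2 ratio of Cyp2a12 to Cyp2a5 went from 0.88 to -0.12 in HFD fed and from 0.29 to -0.71 in HFD fast livers, so the order of these neighbours rests on the length used.

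The make-up differed between the 4 groups. In CD fed livers Cyp2a12 gave 67.6% ± 11.3 and Cyp2a5 31.7% ± 11.2 of the summed level per kilobase (SD, n = 4). In HFD fast livers Cyp2a12 gave 46.2% ± 9.52, Cyp2a5 37.4% ± 4.77, Cyp2b9 10.6% ± 6.18, Cyp2a22 3.85% ± 0.499 and Cyp2a4 1.75% ± 2.42. Cyp2b9 gave 0.0614% ± 0.0464 in CD fed, 0.135% ± 0.119 in CD fast and 5.86% ± 5.45 in HFD fed livers, so its higher share went with HFD in both states. The same was true of Cyp2a4, at 0.0242% ± 0.0151, 0.0115% ± 0.00757 and 4.73% ± 6.55 in these groups. Its share ran from 0.484% to 14.5% in HFD fed and from 0.388% to 5.37% in HFD fast livers, so a single liver carried much of each mean. Cyp2a22 differed by feeding state as well, at 0.362% ± 0.0847 in CD fed, 2.03% ± 0.413 in CD fast and 0.841% ± 0.423 in HFD fed livers. Cyp2b10 and Cyp2b13 stayed below 1% in all 16 livers.

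**Figure D2:**
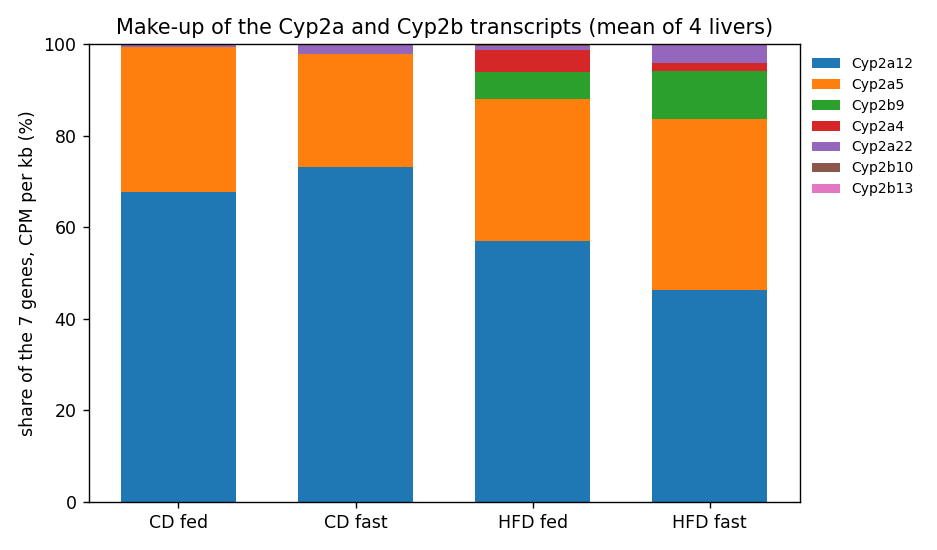
Share of each gene in the summed CPM per kilobase of the 7 genes, as the mean of 4 livers per group in percent. Cyp2a12 and Cyp2a5 fill nearly the whole bar on CD, Cyp2b9 and Cyp2a4 take visible shares on HFD, and the share of Cyp2a22 is larger in the fasted group of each diet.

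The first comparison sets HFD against CD. The genes were chosen with this contrast known, so its values are given as a description with no test. In fed mice 3 of the 7 genes (Cyp2a4, Cyp2b9 and Cyp2b13) had every HFD library above every CD library, and in fasted mice Cyp2a22 joined them, for 4. The same held for 7.21% (fed) and 6.55% (fasted) of all genes tested, and the opposite order for 8.51% and 7.45%. By edgeR, 3.28% of genes were called higher and 4.22% lower with HFD in fed mice, and 3.05% higher and 4.65% lower in fasted mice. Nothing is read from these shares for the 7 genes, since the contrast selected them. Some cell type markers also differed by diet. In fasted mice 3 of 6 endothelial markers (Pecam1 0.44, Stab2 0.43 and Cdh5 0.49) 1 of 7 stellate cell markers (Reln 0.75) and 1 of 5 erythrocyte markers (Alas2) were higher on HFD, and 2 of 8 periportal (Hal -0.73 and Pck1 -1.49) and 1 of 8 hepatocyte markers (Tat -1.92) lower. In fed mice 1 of 9 pericentral markers was lower (Rhbg -1.90). Their part in the values of the 7 genes was not tested.

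Cyp2a4 was close to the floor on CD and widely spread on HFD. CD fed livers had 4, 10, 8 and 23 counts in replicates 1 to 4, and CD fast livers 3, 1, 13 and 4. HFD fed livers had 176, 446, 1271 and 6936 counts, and HFD fast livers 285, 597, 179 and 3207. Every HFD liver was thus far above every CD liver, while HFD livers of one group differed among themselves by 36.8-fold (fed) and 17.3-fold (fast) in CPM. The ratio of summed counts, scaled by library, was 229 in fed mice (95% interval 171 to 315) and 193 in fasted mice (126 to 313). Single livers moved it: without HFD fed replicate 4 it was 67.4 and without CD fed replicate 4 it was 349 in fed mice, and without HFD fast replicate 4 or CD fast replicate 3 it was 65.3 or 363 in fasted mice. These intervals cover counting error only and not the spread between mice. The CD fed liver with 23 counts is replicate 4, which also had the Xist counts, and the part of that in the value was not tested.

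The near copy Cyp2a5 did not follow the same pattern. Its 4 replicates had 6042, 20178, 21780 and 19356 counts in CD fed livers and 3082, 4583, 28362 and 15460 in CD fast livers. HFD fed livers had 13730, 13439, 19260 and 12744 counts, and HFD fast livers 18637, 50007, 17913 and 25639. The diets overlapped in both feeding states, with log2 differences of 0.05 (SE 0.54) fed and 1.16 (SE 0.55) fasted, the latter 0.67 without HFD fast replicate 2 and 1.79 without CD fast replicate 3. Of the counts of the pair, Cyp2a4 held 0.0218% to 0.119% in the 8 CD livers and 0.989% to 35.2% in the 8 HFD livers. Its largest share, in HFD fed replicate 4, came in the liver with the lowest Cyp2a5 count of that group. Over the 8 CD livers Cyp2a5 had 3082 to 28362 counts and Cyp2a4 had 1 to 23, with the 23 in CD fed replicate 4. The part of shared reads in these counts was not tested.

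Cyp2b9, a steroid hydroxylase, was counted 4, 57, 24 and 37 times in the CD fed livers. The CD fast livers had 29, 15, 197 and 34. It reached 2144, 580, 7072 and 1395 counts in HFD fed and 4560, 19867, 5301 and 2530 in HFD fast livers. The lowest HFD liver still lay above the highest CD liver in each feeding state. The scaled ratio of summed counts was 107 (95% counting interval 89.7 to 129) fed and 112 (99.1 to 126) fasted. In CPM the HFD groups stood at 61.8 ± 67.9 and 178 ± 183 (SD, n = 4), and without HFD fed replicate 3 and HFD fast replicate 2 they were 28.5 ± 16.4 and 87.0 ± 31.7 (n = 3). Without these livers the ratio was 51.5 fed and 56.0 fasted, and without CD fast replicate 3 it was 281 fasted.

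Cyp2b13 had the lowest mean level per kilobase of the 7 genes in all groups but HFD fast, where it was at 1.77 CPM per kilobase and Cyp2b10 at 0.718. CD fed livers had 0, 1, 2 and 6 counts and CD fast livers 1, 0, 4 and 2, which is around the floor. HFD fed livers had 47, 11, 100 and 25 counts, and HFD fast livers 55, 434, 38 and 73. The groups did not overlap between diets, and the ratio of summed counts was 23.8 (12.3 to 52.8) fed and 81.5 (39.3 to 204) fasted. Without HFD fast replicate 2 the mean of that group went from 3.32 to 1.15 CPM and the ratio to 29.5, and without CD fast replicate 3 the ratio was 136. In fed mice it was 14.1 without HFD fed replicate 3 and 53.1 without CD fed replicate 4. The highest CD fed value was again that of replicate 4.

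Cyp2a22 was in between. Its HFD libraries overlapped CD libraries in fed mice (log2 difference 1.42, SE 0.47) and lay above all of them in fasted mice (1.56, SE 0.45). Cyp2b10, the gene most often used as a readout of CAR, overlapped between diets in both states, with single livers at 5 to 477 counts. On CD its replicates were at 104, 196, 64 and 34 counts when fed and at 31, 5, 48 and 9 when fasted. On HFD they were at 45, 8, 477 and 172 when fed and at 5, 203, 7 and 32 when fasted. Its log2 difference was 1.07 (SE 1.05) fed and 1.42 (SE 1.19) fasted, with a spread of 62.3-fold among HFD fed livers. Both signs rest on 1 liver, since the difference was -0.27 without HFD fed replicate 3 and -0.74 without HFD fast replicate 2. Cyp2a12 barely moved, at -0.11 (SE 0.14) and -0.02 (SE 0.14).

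**Figure D3:**
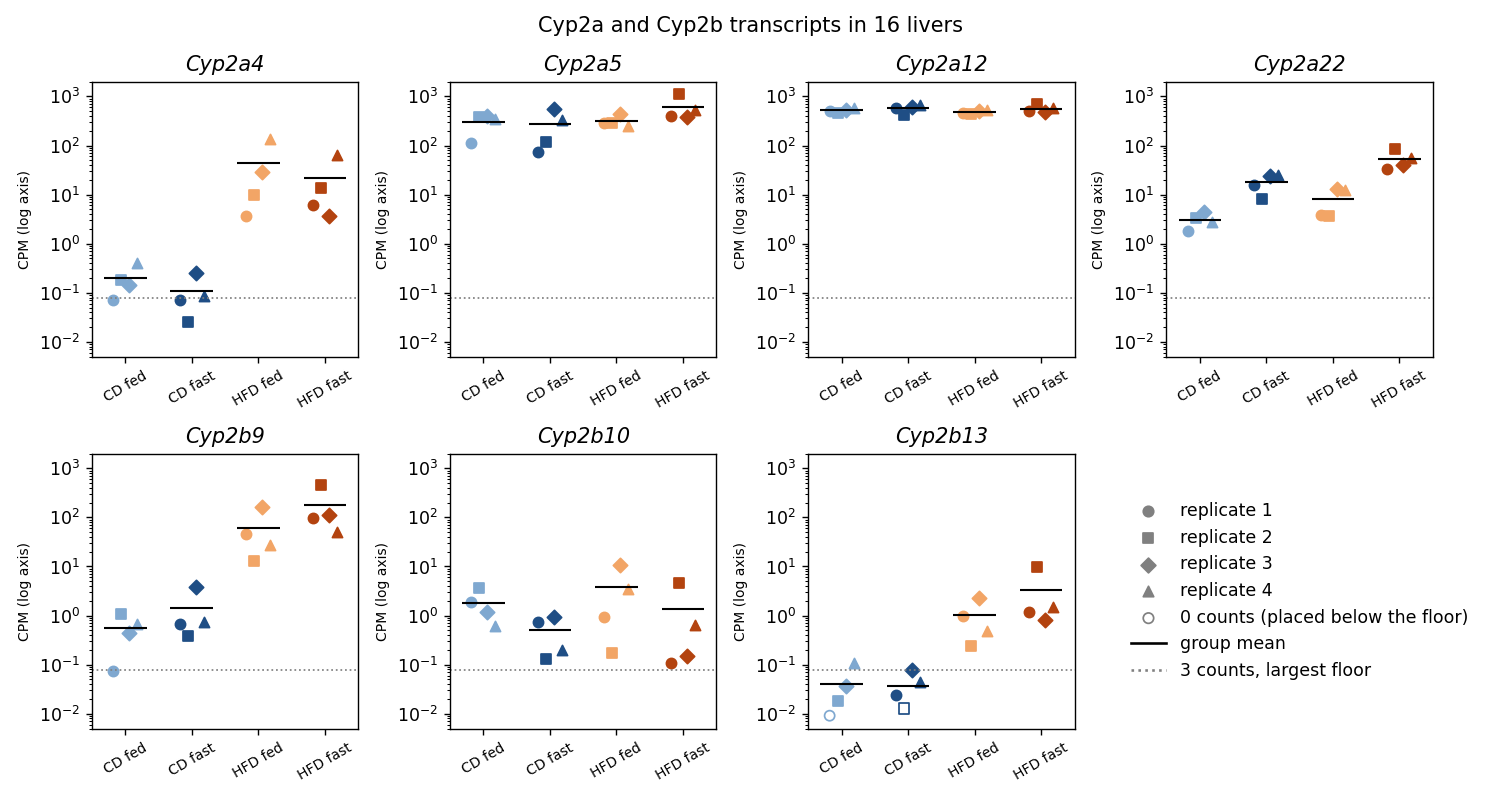
CPM of each gene in every liver on a log axis, by group, with one marker shape per replicate number, a black line at the group mean and open symbols for 0 counts. Cyp2a4, Cyp2b9 and Cyp2b13 are separated by diet in both feeding states, Cyp2a22 by feeding state on both diets and by diet only in fasted mice, and Cyp2a12 lies between 425 and 687 CPM throughout.

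The second comparison is fasting against feeding on each diet. The genes were picked for their levels on HFD and not by this contrast, although other results of these data were known by then. The test on HFD and the interaction use those same levels, so their p-values are not independent of the choice. It was tested with edgeR's quasi-likelihood test with Benjamini-Hochberg adjustment over all 15075 genes. Only Cyp2a22 of the 7 passed, and it did so on both diets. On CD it rose 5.92-fold (log2 change 2.57, SE 0.48, adjusted p = 0.00145), and on HFD 6.54-fold (log2 change 2.71, SE 0.47, adjusted p = 0.00336). As a background, edgeR called 13.7% of genes higher and 11.5% lower with fasting on CD, and 4.78% higher and 4.07% lower on HFD.

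Per liver, Cyp2a22 had 1.82, 3.32, 4.37 and 2.77 CPM in CD fed and 15.5, 8.31, 23.7 and 25.1 in CD fast mice. It had 3.79, 3.61, 13.0 and 12.4 CPM in HFD fed and 33.4, 85.8, 40.3 and 54.7 in HFD fast mice. The fasted livers lay above all fed livers of the same diet, and HFD fast livers above all others. Leaving out HFD fast replicate 2, the highest, gave a log2 change of 2.37 on HFD (adjusted p = 0.00871 by edgeR). Its near copy Cyp2a12 had log2 changes of 0.14 (CD) and 0.23 (HFD), which did not pass (adjusted p = 0.505 and 0.324 by edgeR). The 2 genes are 91.8% identical over the promoter window, and the difference between their fasting changes was not tested.

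Some markers of liver zones and cell types were called with fasting too, to be read against the 13.7% higher and 11.5% lower of all genes on CD and the 4.78% and 4.07% on HFD. Counts of 1 in a list are near these shares and are no result about it. Of 9 pericentral hepatocyte markers, 2 rose and 1 fell on CD, and 1 rose on HFD. Oat rose on both diets (log2 1.67 and 1.68), and Cyp1a2 fell on CD by 1.62. The summed pericentral markers were at 5520 to 8920 CPM in CD fed, 12700 to 15000 in CD fast, 5570 to 11000 in HFD fed and 8680 to 17900 in HFD fast livers, none of them at 0. Of 8 periportal markers, 2 rose and 1 fell on CD (Pck1 0.75, Hsd17b13 0.70 and Cyp2f2 -0.67), and 2 fell on HFD (Sds -1.48 and Pck1 -0.86). On CD 3 of 6 endothelial markers, 3 of 8 Kupffer cell and macrophage markers and 1 of 7 stellate cell markers fell, among them Cdh5 (-0.68) and Adgre1 (-1.11), and on HFD none of these passed. Of 8 hepatocyte markers 2 fell on CD (Ttr -0.92 and Fgb -0.62) and 1 on HFD (Tat -1.35), and their sum was at 115000 to 151000 CPM in CD fed, 97900 to 120000 in CD fast, 119000 to 149000 in HFD fed and 82200 to 113000 in HFD fast livers. Of 5 erythrocyte markers Alas2 fell on both diets (-1.09 and -0.38). Cela2a, the 1 pancreas marker of 5 that was tested, fell on CD (-1.57). Cfd, the 1 adipose marker of 5 that was tested, rose on HFD (3.78), and it was highest in HFD fast replicate 2, which was also the highest liver for Cyp2a22. The part of any of these in the Cyp2a22 result was not tested.

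The remaining genes did not pass for fasting. Cyp2b13 on HFD came nearest, with a log2 change of 1.73 (SE 0.76, unadjusted p = 0.0373, adjusted p = 0.166 by edgeR). Single livers moved it both ways, from 0.19 (HFD fast replicate 2 dropped) to 2.52 (HFD fed replicate 3 dropped). Cyp2b9 changed by 1.39 (SE 1.09) on CD and 1.52 (SE 0.79) on HFD. Its CD value ran from 0.12 (CD fast replicate 3 dropped) to 1.89 (CD fed replicate 2 dropped). Its HFD value ran from 0.48 (HFD fast replicate 2 dropped) to 2.64 (HFD fed replicate 3 dropped). Cyp2b10 had values of -1.84 (SE 1.17) on CD and -1.5 (SE 1.08) on HFD. The latter was -0.15 without HFD fed replicate 3 and -3.67 without HFD fast replicate 2, and passed in neither. Cyp2a4 was at -1.02 (SE 0.9) on HFD, but at 0.64 without HFD fed replicate 4 and -2.52 without HFD fast replicate 4. Cyp2a5 was at -0.18 (SE 0.54) on CD and 0.93 (SE 0.55) on HFD. The latter ran from 0.42 (HFD fast replicate 2 dropped) to 1.12 (HFD fed replicate 3 dropped). The SEs of Cyp2a4, Cyp2b9, Cyp2b10 and Cyp2b13 on HFD, 0.76 to 1.08, are near the size of a 2-fold change (a log2 of 1), which limits what 4 livers per group could show.

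**Figure D4:**
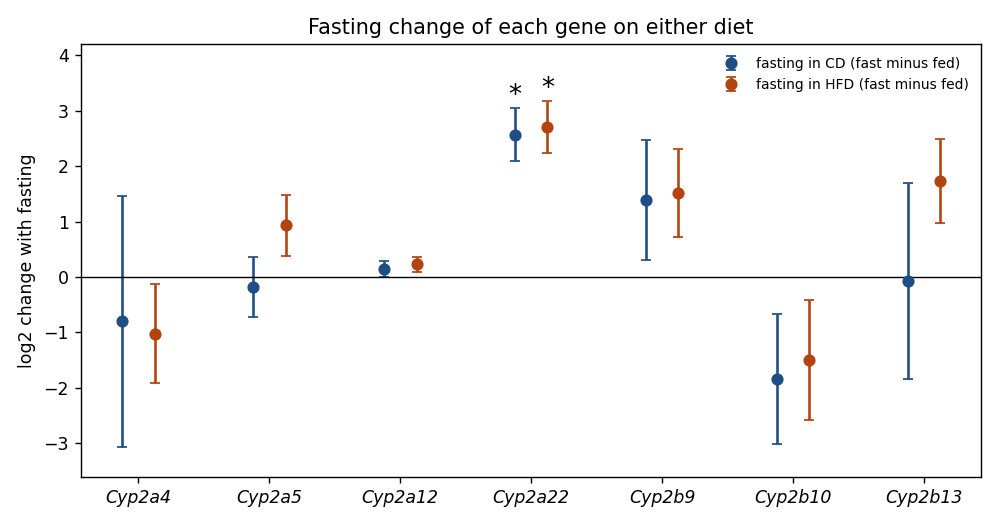
Log2 change with fasting (fast minus fed) of each gene on CD (blue) and on HFD (orange), with bars of 1 SE from the edgeR fit and a star where the adjusted p is under 0.05. Only Cyp2a22 is starred, at 2.57 and 2.71.

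The interaction asks whether the fasting change differed between diets. Cyp2a4 and Cyp2b13 were near the floor on CD, so neither their fasting change on CD nor their interaction could be measured. None of the other 5 genes passed, where edgeR called 1.23% of all genes higher and 1.36% lower. By edgeR 0 of these were at an unadjusted p under 0.05, where 3045 of all 15075 genes tested were. DESeq2 and limma-voom gave 0 of these as well. For Cyp2a22 it was 0.14 (SE 0.64, adjusted p = 0.927 by edgeR), and for Cyp2a5 1.11 (SE 0.77, adjusted p = 0.44 by edgeR).

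The livers with the highest values were not the same for all genes. Over the 8 HFD livers, the 2 highest Cyp2a4 libraries were HFD fed replicate 4 and HFD fast replicate 4, whereas Cyp2b9, Cyp2b10 and Cyp2b13 peaked in HFD fed replicate 3 and HFD fast replicate 2. The HFD levels entered the choice of the genes, so correlations between them are given as a description with no test. Of 21 pairs, Cyp2b9 with Cyp2b13 (Pearson r = 0.92, Spearman rho 0.83) and Cyp2a5 with Cyp2b13 (r = 0.91, rho 0.86) had the highest values over the 8 livers. With the 2 livers farthest from the median left out, r was 0.68 and 0.72 over 6 livers. With the feeding-state mean removed, r was 0.9 for both, and that of Cyp2a22 with Cyp2b10 went from 0.05 to 0.91. Cyp2b9 and Cyp2b13 have 21 windows of 100 bases in common. Cyp2a4 and Cyp2b9 had r = -0.17 (rho -0.05). The adipose marker Cfd was highest in HFD fast replicate 2, the top liver for Cyp2b9, and its part was not tested.

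**Figure D5:**
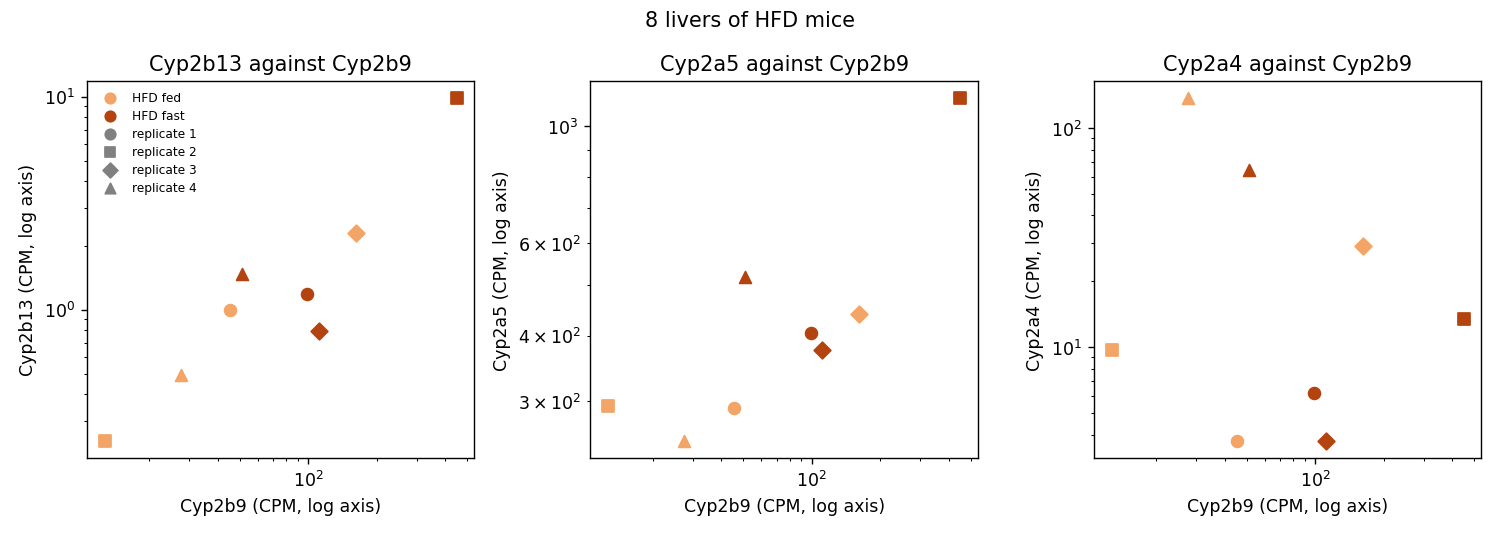
Level of Cyp2b13, Cyp2a5 and Cyp2a4 against Cyp2b9 in the 8 HFD livers, both axes in CPM on a log scale, coloured by feeding state with one marker shape per replicate number. The correlation with Cyp2b9 is 0.92 for Cyp2b13 and -0.17 for Cyp2a4.

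Other genes were set beside these by likeness of log2 CPM over all 16 livers, among 11000 genes with a mean of at least 100 counts. The closest to Cyp2a22 were Slc16a7 (r = 0.95), Ermp1 (0.94) and Rtn4 (0.93), and the closest to Cyp2b9 was Rdh9 (0.92), a retinol dehydrogenase family gene. For Cyp2a4 it was Hand2 (0.89), for Cyp2b13 Kbtbd11 (0.9) and for Cyp2a5 Cebpe (0.9). Cyp2a12 and Cyp2b10 had no gene above 0.76 (Irgm1 and Alb). These values share the group structure of the design and are a description.

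Known targets of CAR and PXR other than Cyp2b10 changed in both directions. Of 32 tested, 2 were higher and 6 lower with HFD in fed mice, with a median log2 of -0.33 against 0.01 over all genes, of which 3.28% were called higher and 4.22% lower. Por rose (log2 1.30, SE 0.27, adjusted p = 0.00889 by edgeR), while the P450 gene Cyp2c55 fell by 2.79 and the carboxylesterase Ces2a by 1.83. In fasted mice 1 was higher, the transporter gene Abcb1a (1.24), against 3.05% of all genes. With fasting on CD 4 were higher and 12 lower, where 13.7% and 11.5% of all genes were, with Cyp2c55 at -3.61 and the glutathione transferase Gstm3 at -3.46, and Alas1, the first enzyme of haem synthesis, at 1.91. On HFD 2 were higher and 1 lower, led by the transporter Slco1a4 (1.87), against 4.78% and 4.07% of all genes. The interaction was positive for Cyp2c55 (3.15) and Gstm2 (1.40), where 1.23% of all genes had a positive one. Several of these counts out of 32 are near the shares of all genes and are no result about the list. They are the 2 higher with HFD in fed mice and the 1 in fasted mice. The 4 higher with fasting on CD and the 2 higher and 1 lower with fasting on HFD are others.

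Of 16 regulators, 1 fell with HFD in fed mice, Stat5b (log2 -0.51, SE 0.13, adjusted p = 0.0242 by edgeR), where 4.22% of all genes were called lower. In fasted mice Stat5a was higher (0.54) and Cux2 lower (-3.33), against 3.05% and 4.65% of all genes. Nr1i3, which encodes CAR, rose with fasting on CD (1.15) and on HFD (1.12), while its target Cyp2b10 had negative values that did not pass. With fasting on CD, Stat5b (-0.67), Nfe2l2 (-0.43) and Nr0b2 (-1.50) fell and Cux2 rose (3.73), so that with Nr1i3 2 of 16 were higher and 3 lower, where 13.7% and 11.5% of all genes were. Hnf4a fell with fasting on HFD (-0.55), where 4.07% of all genes did. These counts are near the shares of all genes and are no result about the list.

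Other genes of sex-dependent expression gave the wider setting, with the 3 female-predominant P450 genes above left out of the list. Of 9 female-predominant genes tested, 0 passed with HFD in fed mice by edgeR. At an unadjusted p under 0.05 by edgeR there were 3, where 3448 of all 15075 genes tested were. All 3 were higher on HFD, namely Hao2 (log2 2.68), Acot3 (1.73) and Cyp17a1 (1.25). In fasted mice Hao2 was higher (3.98) and Cux2 lower (-3.33), where 3.05% and 4.65% of all genes were. Cyp3a41a, Cyp3a41b, Sult2a1 and Sult2a2, also female-predominant, had at most 3 counts in each of the 8 HFD livers. On CD they had at most 2 in each liver but CD fed replicate 4, so no diet difference could be measured for them. Of 13 male-predominant genes, Cyp4a12b was lower with HFD in fed (-1.23) and fasted mice (-1.37), and Gstp1 in fasted mice (-0.91), beside 4.22% (fed) and 4.65% (fasted) of all genes called lower. With fasting 6 of the 13 fell on CD and 6 on HFD, where 11.5% and 4.07% of all genes did, among them the steroid dehydrogenase Hsd3b5 (-5.43 and -3.45) and Selenbp2 (-3.92 and -2.76). Of the female-predominant genes 2 rose with fasting on CD, Acot3 (3.84) and Cux2, against 13.7% of all genes.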

How the data were processed

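RNA of 16 mouse livers was measured by poly(A)-selected RNA-seq. What the authors deposited are unscaled counts for each Ensembl gene, from reads or from pairs of them, made with CASAVA 1.8.4, TopHat2 2.0.11 on GRCm38 and featureCounts per the labels. Alignment used a first-strand setting and the annotation came from Illumina iGenomes. Its release, whether counting used strand, and how reads with several matches were treated are not given in the sources used here. Genes were fitted with edgeR 4.0.16 (TMM, filterByExpr, quasi-likelihood, 1 coefficient per group, 12 residual degrees of freedom), and calls used an adjusted p under 0.05. DESeq2 1.42.0 and limma 3.58.1 were alternatives. The fitting was tested on simulated data. Each liver is 1 library, so p-values measure the spread between these livers. Transcripts and promoters were aligned with Biopython 1.88. Correlations over HFD livers are given without their p-values, since these levels entered the choice of the genes. The fasting test on HFD and the interaction use these levels too, and their p-values carry that limit. All 7 genes were named, with up to 4 called genes per list and contrast by size of change among those with a mean of at least 100 counts, and the 3 genes most like each P450 gene. The ratio of summed counts was repeated without each library, an alternative chosen after seeing the data. Other genes named (Cux2, Hao2, Cyp17a1, the sex-linked, zone and cell type markers) were chosen after their values were seen. The genes and lists were chosen with earlier results of these data known. Counting intervals are 95% exact.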

Additional observations from a re-analysis of the deposited data

Results flagged for a closer look

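Dixon's test was applied to 28 groups of 4 livers (7 genes by 4 groups), and 5 had a highest liver far from the other 3. These 5 are a description only, since the HFD levels entered the choice of the genes and the 28 groups share livers. HFD fast replicate 2 stood apart for Cyp2b9 (450 CPM), Cyp2b10 (4.6 CPM) and Cyp2b13 (9.83 CPM). HFD fast replicate 4 stood apart for Cyp2a4 (64.8 CPM), and without it the other 3 livers averaged 7.81 CPM. CD fast replicate 3 stood apart for Cyp2b9 (3.88 CPM), with 0.603 CPM as the mean of the other 3.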

How the results depend on the processing

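The call of Cyp2a22 with fasting held under all 24 alternatives on each diet, with adjusted p of 7e-06 to 0.00636 on CD and 6.52e-06 to 0.0182 on HFD, and no other gene of the 7 was called where a value was had. The fit of the CD groups alone gave none for Cyp2a4 and Cyp2b13. Some values that did not pass changed sign. Among them, those of Cyp2a4 and Cyp2b13 for fasting on CD and for the interaction rest on CD counts near the floor, so that no change could be measured and nothing is read from their sign. By limma-voom the fasting change of Cyp2b13 on CD was 0.17 and the interaction of Cyp2a4 0.17, and with library totals the correlation of Cyp2a4 with Cyp2a5 was 0.03. The cause was not tested. With the length of all annotated exons, an alternative chosen after seeing the data, the log2 ratio of Cyp2a12 to Cyp2a5 was 0.17 in CD fed livers.

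Leaving out 1 library at a time, the fasting change ran from -0.81 to 0.13 for Cyp2a5 on CD and from -2.52 to 0.64 for Cyp2a4 on HFD. Values for Cyp2b13 on CD ran from -0.75 to 0.98, but with counts near the floor no change could be measured. The interaction ran from -0.03 to 0.17 for Cyp2a12, -0.19 to 0.45 for Cyp2a22, -1.82 to 1.69 for Cyp2b10 and -0.91 to 1.39 for Cyp2b9. Values for Cyp2a4 ran from -1.73 to 1.44, but its interaction could not be measured either. No count of pairs by p-value is given, since the HFD levels entered the choice of the genes. Correlations that changed sign ran from -0.2 to 0.18 (Cyp2a22 with Cyp2b10), -0.11 to 0.32 (Cyp2a4 with Cyp2a22), -0.16 to 0.41 (Cyp2a4 with Cyp2a5), -0.09 to 0.32 (Cyp2a4 with Cyp2b13), -0.34 to 0.08 (Cyp2a4 with Cyp2b9) and -0.04 to 0.53 (Cyp2a5 with Cyp2b10). The genes separated by diet numbered 3 to 4 in fed mice (4 with Cyp2a22, without CD fed replicate 3) and 4 to 5 in fasted mice (5 with Cyp2a5, without CD fast replicate 3). Over all genes, edgeR calls were 3798 (fasting on CD), 1335 (fasting on HFD), 390 (interaction), 1131 (HFD, fed) and 1161 (HFD, fasted), and leaving out 1 library gave 2857 to 3958, 505 to 1533, 147 to 461, 514 to 1268 and 535 to 1354. DESeq2 gave 2009 for fasting on HFD, 1066 for the interaction, and 1768 and 1967 for HFD. For HFD in fasted mice, library totals gave 2099 with the median gene shifted by 0.17, and fitting only those groups 90.

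No pairing of libraries by replicate number was seen, although these values cannot exclude it. Deviations of same-numbered libraries correlated at -0.24 to 0.66 (mean 0.04), and 5 of 16 libraries correlated best with their own number. With the number as a block, the interaction of Cyp2b10 was -0.08. The value for Cyp2a4 was 0.10, which rests on CD counts near the floor and measures no change. With this block 1 gene of the 7 was called for fasting on CD, 1 on HFD and 0 for the interaction, as without it.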
